A study of Mus musculus with 11 samples.

Results

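The unfolded protein response and the folding machinery of the endoplasmic reticulum were followed here through 37 genes in lung epithelium of mouse embryos labelled as a conditional knockout of Prdm3 and Prdm16 and of Control embryos. The 37 genes were chosen by name as the stress sensors, the transcription factors and targets of the ATF4, XBP1 and ATF6 arms, and the folding and degradation genes, and all 37 were found by symbol among the 24421 rows of the count table. In the knockout 5 of the 6 targets of the ATF4 arm fell (83.3%), where 21.8% of all genes tested fell and 21.1% rose. Of 33 further amino acid and tRNA synthetase genes of the ATF4 response, 27.3% fell and 12.1% rose. Of 14 chaperone and folding genes 2 rose and 4 fell, 42.9% in all, which equals the 42.9% called among all genes.

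The endoplasmic reticulum is where secreted and membrane proteins are folded. When folding falls behind, the sensors IRE1, PERK and ATF6 start a response that raises chaperones, clears misfolded proteins and slows translation, and PERK acts through phosphorylation of eIF2 alpha, which favours translation of ATF4. Fetal alveolar type 2 cells depend on this machinery because they make and secrete surfactant proteins in bulk. Counts of mRNA show neither eIF2 alpha phosphorylation nor ATF4 protein, and counts per gene do not separate spliced from unspliced Xbp1.

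Bulk RNA sequencing was done on cells held on EpCAM microbeads after enzymatic dissociation of E17.5 lungs, in 6 Control and 5 PRDM3/16KO libraries. The knockout combined Prdm16 fl/fl and Prdm3 fl/fl (Prdm3 is listed as Mecom) with ShhCre, a Cre at the Shh locus that is active in the lung epithelium from early in its development. The breeding scheme in the labels used ShhCre-positive males with Prdm3 fl/fl and Prdm16 fl/wt alleles and females with Prdm3 fl/fl and Prdm16 fl/fl alleles, and which alleles and Cre status the Control embryos had is not given in the sources used here. The labels number the libraries without saying that each is a separate embryo, so p-values reflect only how these libraries vary, and that variation may be technical.

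Totals per library ran from 6065906 to 7869787 counts, and the group differences below use all 11 libraries. Prdm16 fell from 202 ± 21.9 CPM (counts normalised for library size; here and below mean ± SD over n = 6 Control and n = 5 knockout libraries) to 166 ± 12.2 CPM, a call lost with library-size scaling alone, with the mesenchymal covariate and among high Y-linked libraries alone (edgeR, adjusted p = 0.0576, 0.281 and 0.62), and Mecom rose from 219 ± 9.99 to 340 ± 16.0 CPM. Whole-gene counts include transcripts without the deleted exons, so neither value checks the deletion. High levels of Y-linked transcripts marked Control libraries 1, 3, 4 and 5 and knockout library 4. Epithelial markers (Epcam, Cdh1, keratins and others) summed to 5666 to 6348 CPM in Control and 5697 to 6213 CPM in the knockout. Of these 8 genes 1 rose (Foxa2) and 3 fell (Cdh1, Nkx2-1 and Cldn7). The makeup of the selected cells differed between the groups: type 2 markers fell for 10 of 10 genes, from summed levels of 7256 to 12770 CPM to 2491 to 3772 CPM. All 9 neuroendocrine markers tested rose, from 43.7 to 79.2 CPM to 683 to 835 CPM, and 6 of 14 mesenchymal markers rose, from 575 to 981 CPM to 864 to 1557 CPM. Of 10 type 1 markers 4 rose and 1 fell, and of 7 mesothelial markers 6 and 1. Of 7 endothelial markers 4 rose and 1 fell, and of 6 immune markers 3 and 1. The 4 globin genes were at 0 counts in every library. The whole list of 7 erythroid markers summed to 1.85 to 15.8 CPM in Control and 4.81 to 30.9 CPM in the knockout. The 0 counts therefore do not show that red cells were absent. In bulk RNA, fewer cells of a type and less RNA per cell cannot be told apart, and the part of cell makeup in the gene differences below was not tested.

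The promoters of these genes carry known control elements, and they are shown here. The ATF4 targets are grouped by the arm that is held to act on them, and the other genes by role. Targets of XBP1 and of ATF6 are therefore not set apart from each other. Chaperone genes are classic targets of ATF6 and XBP1 through the endoplasmic reticulum stress element (ERSE, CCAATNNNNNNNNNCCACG) and its short form ERSE-II (ATTGGNCCACG), and amino acid response genes are targets of ATF4 and its partners through the composite element searched as TGATGNAA. RefSeq promoters (build GRCm38.p6, 250 bases before to 50 bases after the start) were at hand for 31 of the 37 genes, and both strands were read. Where sites of these motifs overlap, each is counted.

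ERSE was present in 9 of 31 promoters (29.0%), against 39 of 32851 promoters of all genes (0.119%). The 39 include these 9, and ERSE is the known element of such chaperone genes, so the excess is no independent result. All 10 sites in the 9 promoters are given below on the strand on which they read, with the fixed letters in capitals. Hsp90b1 holds 2 of them.
Hspa5: CCAATcggaggcctCCACG
Hsp90b1, distal: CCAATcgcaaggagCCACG
Hsp90b1, proximal: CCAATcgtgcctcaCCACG
Pdia6: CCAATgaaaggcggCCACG
Calr: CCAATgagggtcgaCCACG
Canx: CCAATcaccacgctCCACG
Dnajc3: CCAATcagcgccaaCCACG
Creld2: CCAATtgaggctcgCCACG
Syvn1: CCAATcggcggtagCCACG
Derl3: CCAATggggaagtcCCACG

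These 9 genes are 7 of the 12 chaperone and folding genes with a promoter, and 2 of the 6 degradation and translocation genes. ERSE-II was present in 2 promoters (6.45%, against 0.0365% of all), as ATTGGcCCACG in Dnajb11 and ATTGGgCCACG in Herpud1. TGATGNAA was present in 4 (12.9%, against 3.97% of all), as TGATGtAA in Trib3, TGATGcAA in Chac1, TGATGaAA in Asns and TGATGcAA in Herpud1. None of the 6 ATF4 targets held ERSE and 3 of them held TGATGNAA. A match is a description of these letters and no evidence of binding.

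Of the promoters with a motif, 5 are shown whole, those of the called genes with the smallest p, in the direction of the gene. Capitals mark the fixed letters of a motif, in reverse complement where the motif reads on the other strand.
Trib3, chr2:152344011-152344310, minus strand: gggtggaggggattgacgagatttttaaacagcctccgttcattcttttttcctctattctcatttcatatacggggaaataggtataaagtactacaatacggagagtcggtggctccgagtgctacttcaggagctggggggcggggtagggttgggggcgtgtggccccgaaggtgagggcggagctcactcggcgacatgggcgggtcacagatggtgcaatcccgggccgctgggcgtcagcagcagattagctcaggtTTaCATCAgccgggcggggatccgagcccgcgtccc
Asns, chr6:7693160-7693459, minus strand: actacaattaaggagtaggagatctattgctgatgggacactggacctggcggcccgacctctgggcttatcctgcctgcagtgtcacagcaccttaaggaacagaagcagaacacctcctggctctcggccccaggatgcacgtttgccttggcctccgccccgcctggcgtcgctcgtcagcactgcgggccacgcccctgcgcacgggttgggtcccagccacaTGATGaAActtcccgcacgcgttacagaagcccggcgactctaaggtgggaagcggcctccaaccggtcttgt
Herpud1, chr8:94386179-94386478, plus strand: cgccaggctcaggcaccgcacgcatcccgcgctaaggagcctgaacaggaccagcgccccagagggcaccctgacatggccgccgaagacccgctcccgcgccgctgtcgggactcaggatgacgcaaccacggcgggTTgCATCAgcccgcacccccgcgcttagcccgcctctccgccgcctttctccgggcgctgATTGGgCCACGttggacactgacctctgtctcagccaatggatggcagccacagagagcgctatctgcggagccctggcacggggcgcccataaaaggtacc
Pdia6, chr12:17266339-17266638, plus strand: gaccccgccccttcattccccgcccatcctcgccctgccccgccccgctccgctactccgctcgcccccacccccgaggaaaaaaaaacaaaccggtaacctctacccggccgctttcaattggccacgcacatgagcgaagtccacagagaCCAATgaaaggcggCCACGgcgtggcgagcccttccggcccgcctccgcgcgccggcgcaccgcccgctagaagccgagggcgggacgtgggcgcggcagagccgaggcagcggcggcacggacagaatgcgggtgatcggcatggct
Hsp90b1, chr10:86705395-86705694, minus strand: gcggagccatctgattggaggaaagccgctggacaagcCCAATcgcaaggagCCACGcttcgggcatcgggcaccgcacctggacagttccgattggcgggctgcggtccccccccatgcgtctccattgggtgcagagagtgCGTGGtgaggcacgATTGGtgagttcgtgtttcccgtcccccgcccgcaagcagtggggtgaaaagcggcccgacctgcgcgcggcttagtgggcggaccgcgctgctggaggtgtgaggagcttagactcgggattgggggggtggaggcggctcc

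Herpud1 was the only gene of the 31 with both an ATF4-type and an ERSE-II motif, 112 to 105 and 52 to 42 bases before its start. In Trib3 the motif lay 15 to 22 bases after the start, and in Asns 23 to 16 bases before it. The pair of ERSE sites of Hsp90b1 lay 212 to 194 and 107 to 89 bases before the start, on opposite strands.

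Of the 37 genes, 36 had enough counts to be tested, and Ern2 did not. Of the 36, 3 were higher and 11 lower in the knockout at an adjusted p under 0.05 in edgeR's quasi-likelihood test, and 22 did not pass. That is 38.9% called, against 42.9% of all 13916 genes tested, with 8.33% higher against a background of 21.1% and 30.6% lower against a background of 21.8%. The median log2 fold change (knockout over Control) was -0.03 among them and 0.0023 among all genes, and the median size of the change was 0.17 against 0.24. CPM ranges of the groups did not overlap for 8 of the 36 genes, against 28.5% of all genes. Scaled by library size alone the median of all genes moved to 0.11, and the counts became 10 higher and 8 lower, so shifts near that size depend on the scaling.

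**Figure D1:**
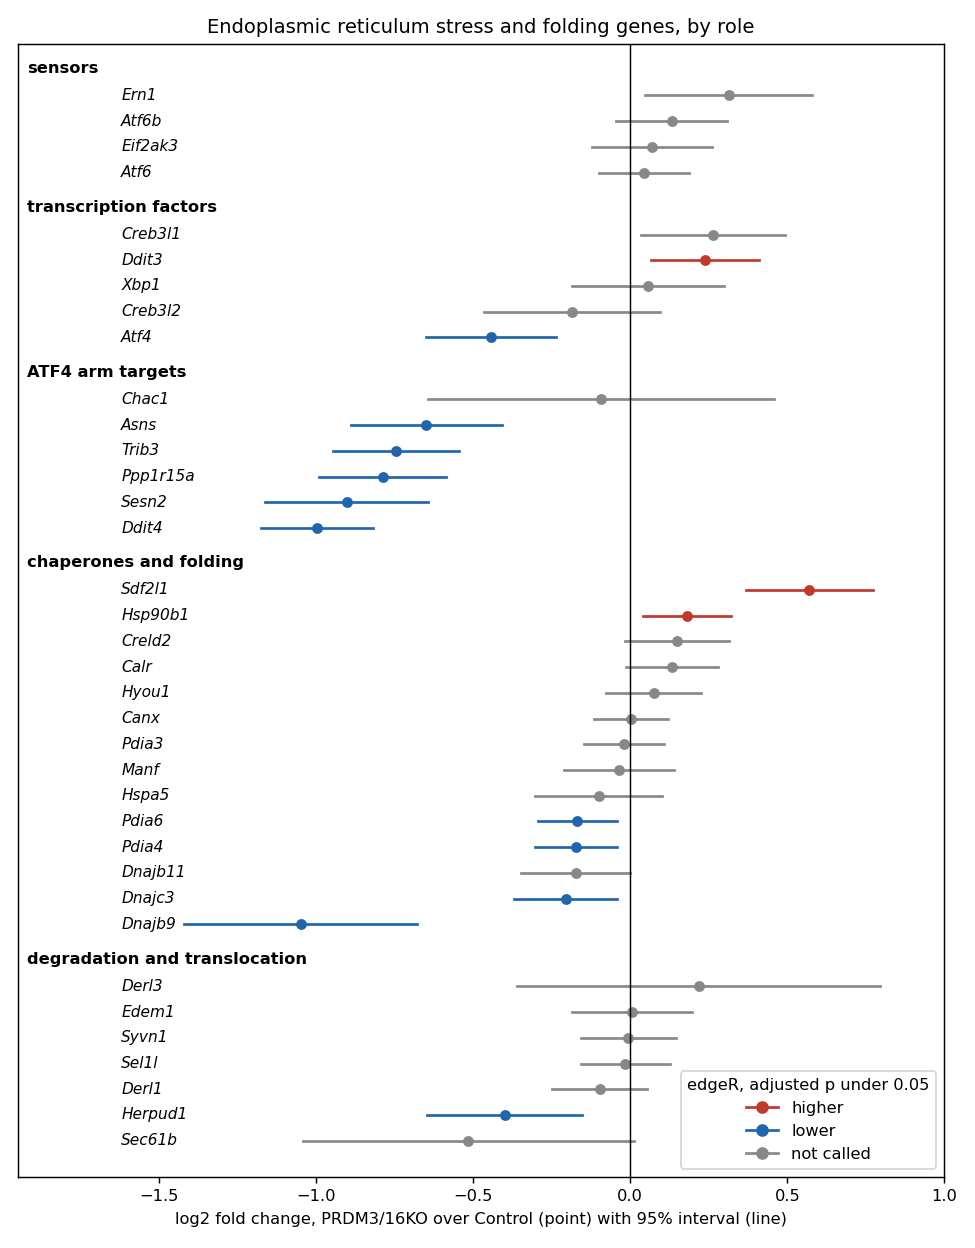
Log2 fold change of each of the 36 tested genes (point) with its 95% interval (line), grouped by role and coloured by the edgeR call. The points of all 6 ATF4 arm targets lie left of 0, and of their intervals only that of Chac1 spans 0. Among the other groups Dnajb9 and Sdf2l1 lie farthest from 0 of the called genes.

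**Figure D2:**
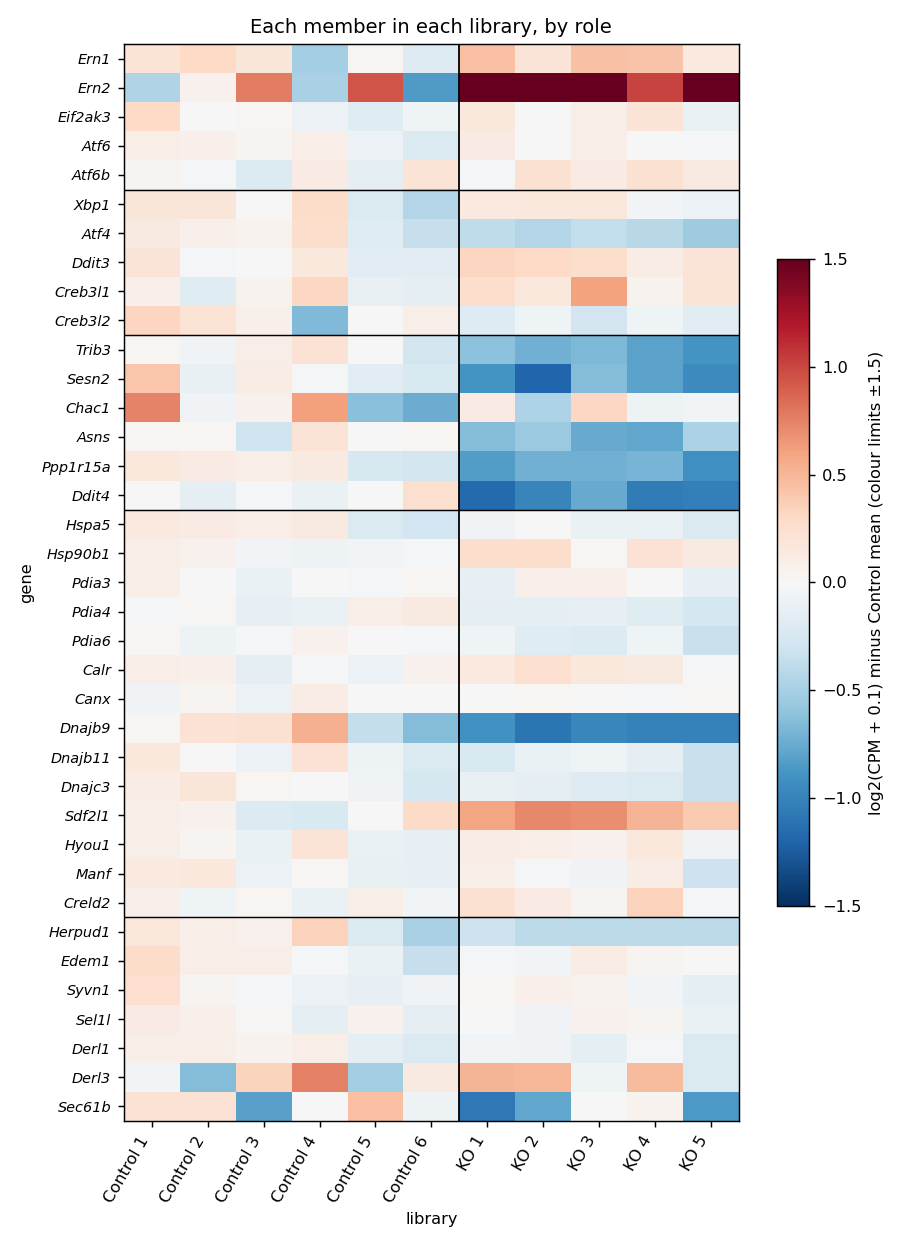
Level of each of the 37 genes (rows, by role) in each of the 11 libraries (columns; KO is PRDM3/16KO), as log2 CPM relative to the Control mean. Ern2 and Sdf2l1 are red and 5 of the 6 ATF4 targets, Atf4 and Dnajb9 blue across the knockout columns, and Control libraries 5 and 6 are paler or bluer than the other Control libraries for several of them.

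None of the 4 sensors tested passed. Ern1 encodes IRE1 alpha, the sensor that splices Xbp1 mRNA, and here, as for all genes below, values run in library order: 41.7, 44.4, 40.9, 25.3, 36.8 and 31.5 CPM in Control and 49.5, 41.3, 48.9, 48.8 and 40.1 CPM in the knockout. Control library 4 was the lowest and the groups overlapped, with a log2 fold change of 0.31 (95% interval 0.048 to 0.58; edgeR, adjusted p = 0.0544). Ern1 lies close to the threshold: it passed when Control 1, Control 2, knockout 2 or knockout 5 was left out (edgeR, adjusted p = 0.0284 to 0.0474 in these, 0.0284 to 0.117 over all single libraries) and with DESeq2 (adjusted p = 0.0477). Eif2ak3, which encodes PERK, stood at 34.2 ± 4.12 and 35.8 ± 3.13 CPM (log2 fold change 0.07, interval -0.12 to 0.26). Atf6, the membrane-bound factor released by proteolysis in the Golgi, stood at 187 ± 16.2 and 193 ± 8.16 CPM (0.04, interval -0.10 to 0.19). Its relative Atf6b stood at 34.3 ± 3.67 and 37.6 ± 2.56 CPM (0.13, interval -0.04 to 0.31). The intervals of these 3 sensors reach no further than 0.31 from 0 on the log2 scale. Of the exon bases of Eif2ak3, 8.05% lie on a gene of the other strand, and the strand setting of the counting is not given in the sources used here.

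Ern2 encodes IRE1 beta, the IRE1 form of mucus-making epithelium. It had 2, 4, 6, 2, 8 and 2 counts in the Control and 18, 15, 26, 9 and 26 counts in the knockout libraries. In CPM the highest Control library, at 1.10, lay below the lowest knockout library, at 1.16. Over the groups the level ratio was 4.06 (95% counting interval 2.57 to 6.65, from 24 and 94 counts), and with no filter on low counts the log2 fold change was 1.99 (SE 0.38; edgeR, adjusted p = 2.95e-04). Summed airway secretory and goblet markers ran from 267 to 835 CPM in Control and from 1236 to 1663 CPM in the knockout. Of the 9 tested, 5 rose (Muc5ac, Spdef, Fcgbp, Foxa3 and Gcnt3). Scgb1a1 fell, from 47.6 ± 29.5 to 18.6 ± 3.69 CPM, and Muc5b, Scgb3a2 and Cyp2f2 did not pass. Fcgbp alone went from 11.9 ± 3.61 to 741 ± 95.1 CPM and makes up much of the rise in the sum. The part of airway secretory and goblet cells in the Ern2 difference was not tested. Ern2 was the lowest of the 37 genes per exon length, at 0.20 and 0.81 CPM per kilobase.

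Among the 5 transcription factors 1 fell, 1 rose and 3 did not pass. Atf4 (chromosome 15, 80255184 to 80257541, plus strand, GRCm38), the effector of PERK and of the other eIF2 alpha kinases, was counted at 808, 779, 761, 884, 650 and 579 CPM in Control and at 564, 542, 570, 550 and 508 CPM in the knockout. Control libraries 5 and 6 were the lowest Controls, and the lowest of them stood just above the highest knockout library. Its log2 fold change was -0.44 (SE 0.097, 1.36-fold lower; edgeR, adjusted p = 0.00175). Atf4 passed with each library left out in turn (edgeR, adjusted p = 7.35e-05 to 0.00691). It did not pass with the mesenchymal marker level as a covariate (-0.34; edgeR, adjusted p = 0.110), or among the low Y-linked libraries alone (-0.32; edgeR, adjusted p = 0.0827) or the high ones alone (-0.50; edgeR, adjusted p = 0.132).

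Ddit3 encodes CHOP, a factor that ATF4 induces under lasting stress and that promotes cell death. Its levels were 39.6, 34.0, 34.5, 38.7, 30.7 and 30.9 CPM in Control and 43.2, 42.7, 41.4, 37.4 and 39.5 CPM in the knockout. It rose by 0.24 on the log2 scale (SE 0.080; edgeR, adjusted p = 0.0264), the direction opposite to Atf4, and its ranges overlapped. The call was lost without Control 5, knockout 1 or knockout 3 (edgeR, adjusted p = 0.0518 to 0.0658, and 0.0124 to 0.0658 over all single libraries), and with the mesenchymal or Y-linked covariate (edgeR, adjusted p = 0.147 and 0.0545), and among high Y-linked libraries its value was 0.06. Of its exon bases, 4.73% lie on genes of the other strand, Mars among them.

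Xbp1, whose spliced mRNA encodes the IRE1 effector, was counted at 219, 219, 194, 234, 167 and 143 CPM in Control and at 214, 215, 217, 188 and 182 CPM in the knockout. All 5 knockout libraries lay within the Control range, and the log2 fold change was 0.05 (interval -0.19 to 0.30; edgeR, adjusted p = 0.727). Creb3l1 and Creb3l2 encode membrane-bound factors related to ATF6 (OASIS and BBF2H7) that act on secretory capacity. Creb3l1 stood at 44.5 ± 5.93 and 53.2 ± 8.26 CPM (log2 fold change 0.26; edgeR, adjusted p = 0.0600) and passed without Control 4, knockout 2 or knockout 4 (edgeR, adjusted p = 0.0128 to 0.0423). Creb3l2 stood at 183 ± 37.7 and 161 ± 10.1 CPM (-0.19; edgeR, adjusted p = 0.277), with Control library 4 far below the other Control libraries at 113 CPM, and without that library it passed (-0.29; edgeR, adjusted p = 0.00294).

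The ATF4 arm targets fell for 5 of 6 genes (83.3% lower against a background of 21.8%). All 5 had ranges that did not overlap, where 14.2% of all genes were lower without overlap. The median log2 fold change of the 6 targets was -0.77. With library-size scaling alone the same number fell. Ppp1r15a (chromosome 7, 45522916 to 45526268, minus strand) encodes GADD34, the phosphatase subunit that takes the phosphate off eIF2 alpha again and so ends the block of translation. Its CPM was 1228, 1200, 1180, 1207, 936 and 913 in Control and 615, 669, 671, 680 and 581 CPM in the knockout. Every knockout library lay below every Control library, and the log2 fold change was -0.79 (SE 0.095, 1.73-fold lower; edgeR, adjusted p = 7.15e-06). Per exon length it was the second most abundant of the 37 genes in Control, after Hspa5, at 378 ± 49.5 CPM per kilobase, and stood at 219 ± 14.7 in the knockout.

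Ddit4 (chromosome 10, 59949669 to 59951834, minus strand) encodes REDD1, an inhibitor of mTORC1 signalling that ATF4, hypoxia and glucocorticoids induce. Control libraries held 209, 187, 206, 194, 209 and 246 CPM, and knockout libraries 92.4, 105, 123, 101 and 102 CPM. The gap between the groups was wider than the range within either of them. It fell 1.99-fold (log2 scale, SE 0.083; edgeR, adjusted p = 1.55e-07), the smallest p among the 36 genes. Control library 6 was the highest for Ddit4, whereas it was the lowest for Ppp1r15a and Atf4.

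Sesn2 (chromosome 4, 132492032 to 132510501, minus strand) encodes sestrin 2, a leucine sensor that also restrains mTORC1. Sesn2 stood at 57.9, 40.2, 46.9, 42.8, 38.7 and 36.9 CPM in Control and at 23.3, 18.9, 27.5, 24.8 and 22.3 CPM in the knockout (log2 fold change -0.90, SE 0.12; edgeR, adjusted p = 2.23e-05). Control library 1 was the highest, and the groups did not overlap. Trib3, a pseudokinase that feeds back on ATF4 and binds AKT, was counted at 29.1, 27.5, 30.5, 33.3, 28.6 and 23.6 CPM in Control and at 18.7, 17.3, 17.9, 16.3 and 15.3 CPM in the knockout (-0.75, SE 0.094; edgeR, adjusted p = 1.22e-05). Asns, asparagine synthetase, was counted at 12.4, 12.4, 9.91, 14.0, 12.1 and 12.5 CPM in Control and at 7.69, 8.28, 7.17, 7.08 and 8.76 CPM in the knockout (-0.65, SE 0.11; edgeR, adjusted p = 2.51e-04). For Trib3 and Asns too, the lowest Control library lay above every knockout library. Asns did not pass among high Y-linked libraries alone (-0.78; edgeR, adjusted p = 0.109), where 1 knockout library faces 4 Controls.

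Chac1, a glutathione-degrading enzyme and a strong ATF4 and CHOP target, was the exception. Control values were 24.7, 14.1, 15.4, 22.5, 9.50 and 8.77 CPM, and knockout values 16.0, 10.6, 18.2, 13.9 and 14.3 CPM. The Control libraries spread over both sides of the knockout range, with a coefficient of variation of 41.6%, and the log2 fold change was -0.09 (interval -0.64 to 0.46; edgeR, adjusted p = 0.798). That interval reaches close to the value of Asns on its lower side. The mean log2 CPM of the 6 targets ran from 5.72 to 6.16 in Control and from 5.16 to 5.39 in the knockout.

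**Figure D3:**
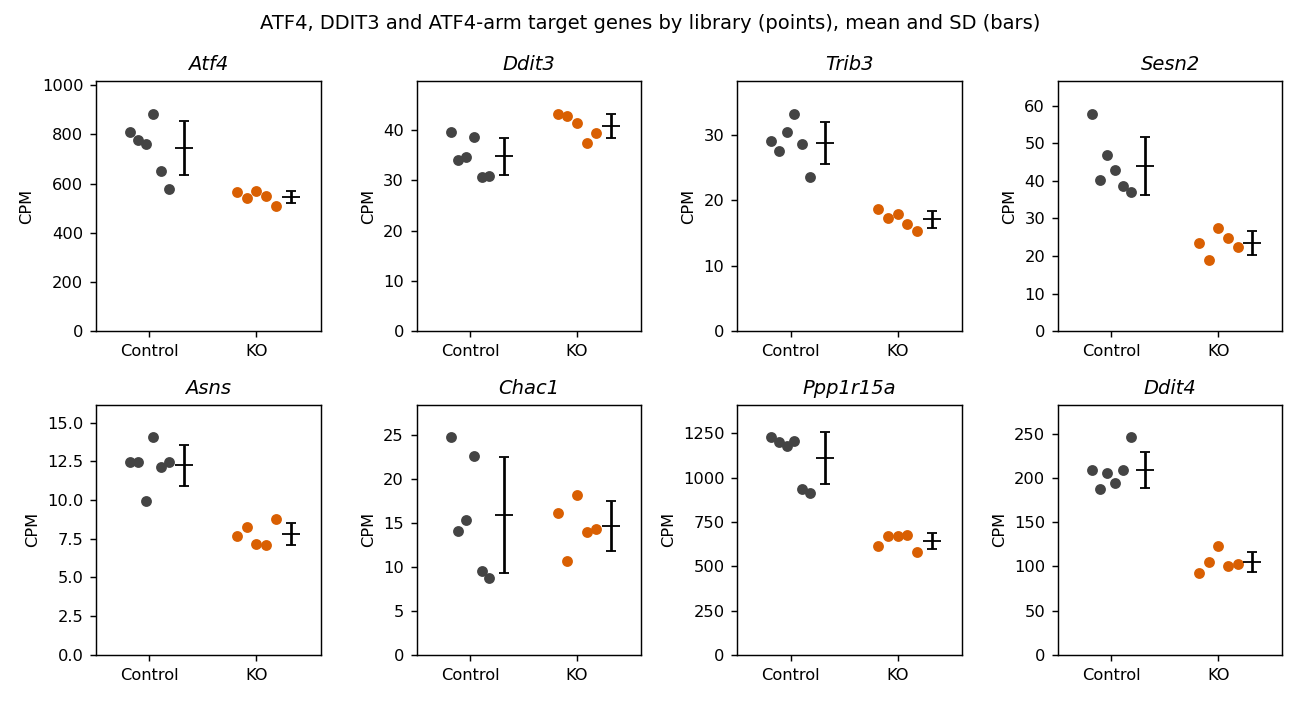
CPM of Atf4, Ddit3 and the 6 ATF4 arm targets in each library (points; KO is PRDM3/16KO), with mean and SD (bars) and axes from 0. Atf4, Trib3, Sesn2, Asns, Ppp1r15a and Ddit4 are lower in every knockout library than in every Control library, while Ddit3 and Chac1 overlap.

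Among the 14 chaperone and folding genes 2 rose, 4 fell and 8 did not pass (14.3% higher and 28.6% lower, against 21.1% and 21.8% of all genes), with a median log2 fold change of -0.03. With library-size scaling alone 5 rose and 1 fell, so the direction of the small shifts in this group depends on the scaling. The mean log2 CPM of the group ran from 7.53 to 7.70 in Control and from 7.44 to 7.61 in the knockout. Hspa5 encodes BiP, the main HSP70 of the endoplasmic reticulum and the most used marker of the response. Hspa5 stood at 2527, 2493, 2440, 2501, 1962 and 1866 CPM in Control and at 2193, 2292, 2137, 2136 and 1960 CPM in the knockout. Knockout libraries 1 to 4 fell between the 4 high and the 2 low Control libraries, knockout library 5 fell between Control 5 and Control 6, and the log2 fold change was -0.10 (interval -0.30 to 0.10; edgeR, adjusted p = 0.422). Without Control libraries 5 and 6 it passed, at -0.22 (edgeR, adjusted p = 0.00930). It was the most abundant of the 37 genes per exon length, at 543 ± 71.0 CPM per kilobase in Control and 507 ± 28.5 in the knockout.

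Dnajb9 (chromosome 12, 44205559 to 44210326, minus strand) encodes ERdj4, a BiP co-chaperone that represses IRE1 and aids degradation, and was the member with the largest change among those tested. Dnajb9 stood at 176, 202, 204, 250, 135 and 110 CPM in Control and at 92.4, 80.8, 88.0, 86.1 and 85.6 CPM in the knockout. The knockout libraries lay close together, with a coefficient of variation of 4.86% against 28.1% in Control, and all were below the lowest Control. The log2 fold change was -1.05 (SE 0.17, 2.07-fold lower; edgeR, adjusted p = 2.50e-04), and -1.27 without Control libraries 5 and 6 (edgeR, adjusted p = 1.51e-08). Of its 50-base stretches, 5.50% are shared with Gm6568, which the counting could have split.

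Sdf2l1 (chromosome 16, 17130138 to 17132383, minus strand) encodes a BiP-associated protein that helps its cycle of substrate release, and moved the other way. CPM values were 35.5, 34.7, 28.9, 28.4, 33.2 and 40.6 in Control and 50.3, 54.8, 53.9, 47.3 and 43.7 in the knockout, and the groups did not overlap. It rose by 0.57 on the log2 scale (SE 0.095, 1.48-fold; edgeR, adjusted p = 1.74e-04), and among high Y-linked libraries alone its value was 0.58 (edgeR, adjusted p = 0.0604). Of BiP and these partners, Hspa5 did not pass, Dnajb9 fell and Sdf2l1 rose.

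The remaining calls in the group were small, and each was lost without several single libraries. Hsp90b1, which encodes GRP94, was counted at 477, 463, 432, 422, 433 and 438 CPM in Control and at 534, 531, 451, 515 and 486 CPM in the knockout. Only knockout library 3 fell within the Control range, and Hsp90b1 rose by 0.18 (SE 0.065; edgeR, adjusted p = 0.0363). It lost the call without Control 3, Control 5, knockout 1, knockout 2 or knockout 4 (edgeR, adjusted p = 0.0618 to 0.0934, and 0.0191 to 0.0934 over all single libraries). Of its exon bases, 15.7% overlap other genes, so part of its count is uncertain. Pdia4 and Pdia6, which encode disulfide isomerases, fell by 0.17 each (edgeR, adjusted p = 0.0315 and 0.0316). Pdia4 ran from 174 to 208 CPM in Control and from 158 to 175 in the knockout, and Pdia6 from 143 to 157 and from 119 to 143. Dnajc3, which encodes the BiP co-chaperone p58IPK, fell by 0.20 (edgeR, adjusted p = 0.0429), from a range of 249 to 338 CPM to 237 to 277 CPM. Pdia4 lost the call without Control 2, 5 or 6 or without any knockout library but the third, Pdia6 without Control 1 or 5 or knockout 2, 3 or 5, and Dnajc3 without Control 1, 2 or 3 or any knockout library but the first (edgeR, adjusted p = 0.0507 to 0.116 in these, and 0.00485 to 0.116 over all single libraries of the 3 genes). The 3 calls were also lost with library-size scaling alone, at -0.07, -0.06 and -0.09.

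The other 8 folding genes did not pass. Calr and Canx, the lectin chaperones that hold newly glycosylated proteins, stood at 563 ± 37.1 and 618 ± 38.5 CPM for Calr (log2 fold change 0.13, interval -0.01 to 0.28) and at 312 ± 15.3 and 313 ± 5.09 CPM for Canx (0.0033, interval -0.11 to 0.12). Pdia3, the isomerase that works with both, stood at 197 ± 8.16 and 194 ± 13.7 CPM (-0.02, interval -0.15 to 0.11). Hyou1, the large HSP70-related exchange factor of BiP, stood at 251 ± 23.4 and 264 ± 14.2 CPM (0.07). Manf and Creld2 encode secreted stress-induced proteins, with log2 fold changes of -0.04 and 0.15. Dnajb11, which encodes the co-chaperone ERdj3, had a value of -0.17 (interval -0.35 to -0.00043; edgeR, adjusted p = 0.0988) and passed without Control 6 (-0.21; edgeR, adjusted p = 0.0303). The intervals of Canx, Pdia3 and Hspa5 all stay between -0.30 and 0.12 on the log2 scale. The 9 genes whose promoters hold ERSE divided into 1 higher, 2 lower and 6 not called, with a median log2 fold change of 0.0033. The 4 with TGATGNAA divided into 3 lower and 1 not called, with a median of -0.52. Of all genes tested 21.1% were higher and 21.8% lower. Sesn2, Ppp1r15a and Ddit4, ATF4 targets without TGATGNAA in the window, fell too, with log2 fold changes of -0.90, -0.79 and -0.996.

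**Figure D4:**
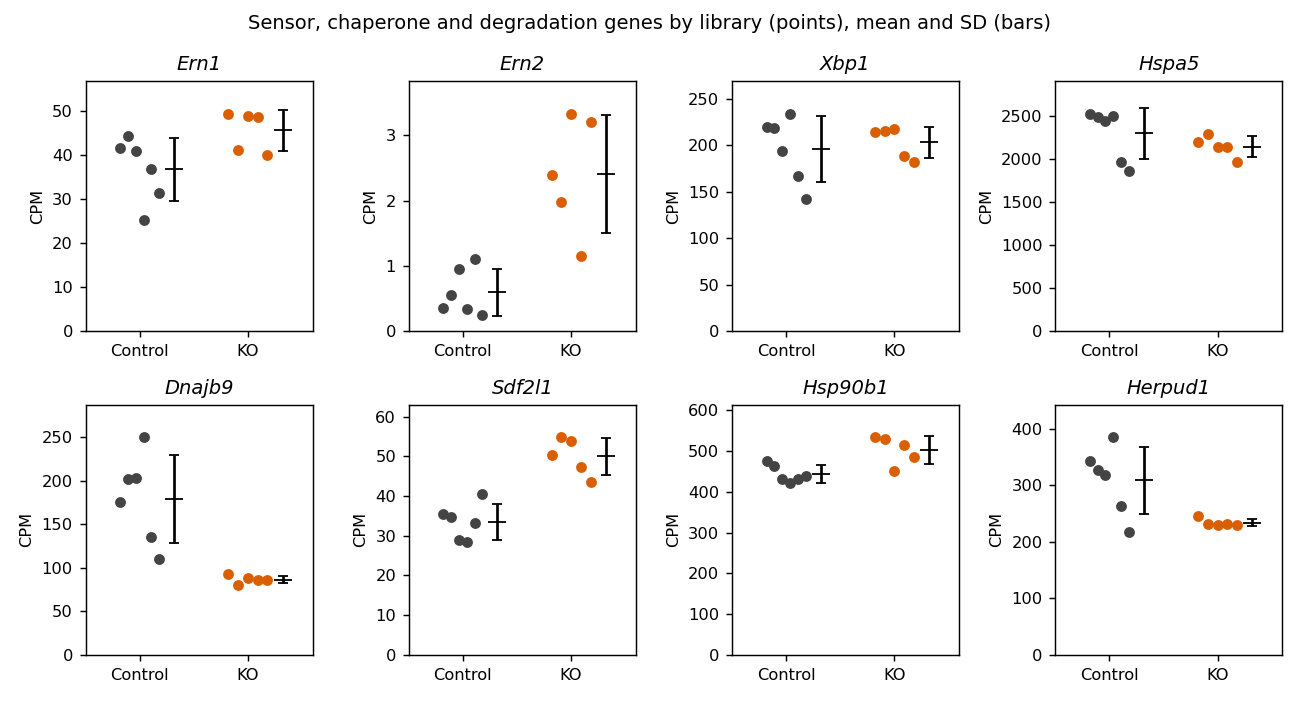
CPM of 8 sensor, transcription factor, chaperone and degradation genes in each library (points; KO is PRDM3/16KO), with mean and SD (bars) and axes from 0. Dnajb9 is lower and Sdf2l1 and Ern2 higher in every knockout library than in every Control library; Xbp1, Hspa5 and Herpud1 show 2 low Control libraries.

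Of the 7 degradation and translocation genes 1 fell and 6 did not pass, with a median log2 fold change of -0.02. Herpud1 encodes a membrane protein that organises the HRD1 ubiquitin ligase and is induced by both ATF4 and ATF6. Herpud1 levels were 342, 327, 318, 385, 264 and 217 CPM in Control and 246, 232, 230, 232 and 231 CPM in the knockout. Control library 6 lay below every knockout library and the other 5 above, and the log2 fold change was -0.40 (SE 0.12, 1.32-fold lower; edgeR, adjusted p = 0.0116). It passed with each library left out in turn (edgeR, adjusted p = 1.67e-04 to 0.0275), but not with the mesenchymal covariate (-0.22; edgeR, adjusted p = 0.381), the Y-linked covariate (-0.32; edgeR, adjusted p = 0.0731), or among low or high Y-linked libraries alone (-0.22 and -0.50; edgeR, adjusted p = 0.299 and 0.144).

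The core genes of the HRD1 complex did not pass the test. Syvn1, the ligase HRD1 itself, stood at 101 ± 9.77 and 100.5 ± 5.67 CPM (log2 fold change -0.0062, interval -0.16 to 0.14), and its adaptor Sel1l at 346 ± 26.3 and 342 ± 15.9 CPM (-0.02, interval -0.16 to 0.13). Edem1, which hands trimmed glycoproteins to the ligase, stood at 66.0 ± 9.36 and 66.1 ± 2.89 CPM (0.0059, interval -0.19 to 0.20). Derl1, a derlin of the retrotranslocation channel, stood at 141 ± 13.1 and 132 ± 7.27 CPM (-0.10, interval -0.25 to 0.05). Derl3, its inducible relative, was barely expressed, at 2.14 ± 0.82 and 2.46 ± 0.58 CPM, and its interval of -0.36 to 0.80 is wide. Sec61b, a subunit of the translocation channel, had a log2 fold change of -0.52 (interval -1.04 to 0.01; edgeR, adjusted p = 0.106) at 8.23 ± 2.18 and 5.76 ± 2.15 CPM, and passed without Control 3 or knockout 4 (edgeR, adjusted p = 0.0458 and 0.0334). Its counts are uncertain, since 17.4% of its 50-base stretches occur in other genes, Gm10320 among them.

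Control libraries 5 and 6 stood apart for many of these genes. They were the 2 lowest Control libraries for 14 of the 37 genes, among them Atf4, Ppp1r15a, Sesn2, Hspa5, Dnajb9, Herpud1 and Xbp1, and the 2 highest for 1. Their mean log2 CPM of proliferation markers was 4.79 and 5.22, where the other Controls ran from 3.60 to 4.14 and the knockout libraries from 3.95 to 4.43, and they were also the 2 lowest Controls for type 2 markers (9.31 and 9.03, the others 9.54 to 9.76), type 1 markers (8.93 and 8.73, the others 9.33 to 9.50), mesothelial markers (2.49 and 2.39, the others 2.90 to 3.08) and immune markers (1.55 and 1.29, the others 1.99 to 2.57). The part of proliferation or cell makeup in these values was not tested. Without the pair, 2 of the 37 genes were higher and 13 lower: Sdf2l1 stayed higher and Ern2, which then had enough counts to be tested, was the other (2.07; edgeR, adjusted p = 8.77e-04), Hspa5, Dnajb11 and Derl1 passed as lower, and Ddit3 (0.15; edgeR, adjusted p = 0.122), Hsp90b1 and Pdia4 no longer passed. Ern2 met the low-count filter there through its high knockout libraries, so that fit gives its rise no independent support. The coefficient of variation was larger in Control for 29 of the 37 genes, with medians of 11.2% and 6.95%.

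The other genes of the same pathways were read from 7 lists of 186 genes, of which 178 were tested: 13 rose and 44 fell (7.30% and 24.7%, against 21.1% and 21.8% of all genes), with a median log2 fold change of -0.10. The share lower over the 7 lists is near that of all genes, and by list it ran from 2.86% for further folding genes to 44.4% for the related proteases, bZIP factors and cell death genes. With library-size scaling alone the counts were 30 higher and 20 lower. The amino acid and tRNA synthetase genes of the ATF4 response divided into 4 higher, 9 lower and 20 not called. That is 12.1% higher and 27.3% lower, against 21.1% and 21.8% of all genes, with a median log2 fold change of -0.06. The share lower in this longer ATF4 list thus lies near that of all genes. Psat1 of serine synthesis fell from 206 ± 21.6 to 107 ± 9.42 CPM (log2 fold change -0.95), and the 2 chains of an amino acid exchanger fell as well, Slc7a5 by 0.72 and Slc3a2 by 0.96. Slc38a2, another amino acid transporter and ATF4 target, rose by 0.43, from 826 ± 111 to 1109 ± 90.4 CPM, Wars rose by 0.23 and Shmt2 by 0.21. Shmt2 lost the call without Control 2, knockout 4 or knockout 5 (edgeR, adjusted p = 0.0509 to 0.0728). Cebpg, a partner of ATF4, did not pass, at 160 ± 7.25 and 165 ± 7.54 CPM.

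Among 10 genes of eIF2 alpha control 3 fell (30%, against 21.8% of all genes) and 0 rose. Eif2ak4, which encodes GCN2, the kinase that senses amino acid shortage, fell from 29.3 ± 5.02 to 15.3 ± 1.95 CPM (-0.94), and Eif2ak1 by 0.24. Ppp1r15b, which encodes the constitutive counterpart of GADD34, fell by 0.17. With 1 library left out it kept the call only without Control 4, Control 5 or Control 6 (edgeR, adjusted p = 0.0514 to 0.139 in the others). Eif2s1, which encodes eIF2 alpha, stood at 51.7 ± 3.89 and 53.1 ± 3.68 CPM and did not pass. Of 34 translocon, signal peptidase and glycosylation genes 11 fell (32.4%) and 2 rose (5.88%). Ssr1 fell by 0.31 and Sec11c by 0.76. Sec61g fell from 2.59 ± 0.93 to 0.95 ± 0.24 CPM, with 14.8% of its 50-base stretches shared with other genes. Sec61a2 and Ddost rose by 0.29 and 0.22, and Sec62 did not pass. Of the 50-base stretches of Sec61a2, 18.2% are shared with other genes.

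Of 35 further folding genes 4 rose, 1 fell and 30 did not pass. Pdia5 rose from 2.18 ± 0.37 to 6.39 ± 1.39 CPM (log2 fold change 1.53), Txndc5 by 0.38 and Wfs1 by 0.42, while Ppib fell by 0.21. Ppib shares 30.8% of its 50-base stretches with other genes and lost the call with library-size scaling alone. P4hb, the most abundant isomerase here, did not pass, at 784 ± 58.7 and 782 ± 31.6 CPM. Of 27 genes of transport to the Golgi 9 fell (33.3%) and 1 rose (3.70%). The cargo receptor pair Mcfd2 and Lman1 fell by 0.86 and 0.17 and Sar1b by 0.34. Tmed3 rose by 0.36, and Surf4 did not pass. Mcfd2 kept its call under all 24 alternatives. Lman1 and Sar1b lost theirs with library-size scaling alone and with the mesenchymal covariate, among others. Of 21 degradation genes 3 fell (Herpud2 by 0.30, Selenos by 0.38, Ngly1 by 0.28), 1 rose (Ube2g2 by 0.21) and Os9 did not pass. Ngly1 lost the call without Control 2, 3 or 4 or knockout 1, 2, 4 or 5 (edgeR, adjusted p = 0.0601 to 0.0883).

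Of 18 related proteases, bZIP factors and cell death genes 8 fell and 1 rose. Nfe2l2, which encodes NRF2, a further substrate of PERK, fell from 950 ± 129 to 413 ± 16.8 CPM (log2 fold change -1.20), and the BH3-only genes Bbc3 and Bcl2l11, known CHOP and stress targets, fell by 0.78 and 0.69. Tnfrsf10b, the death receptor that CHOP induces, rose by 0.32 and lost the call without Control 1, 3 or 5 or knockout 1 or 4 (edgeR, adjusted p = 0.0572 to 0.0781). Atf3, a stress factor below ATF4, did not pass, at 2157 ± 443 and 2057 ± 169 CPM.

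Immediate early genes known to answer cell dissociation were read beside these. Of 18 such genes 8 rose and 7 fell (44.4% and 38.9%, against 21.1% and 21.8% of all genes). That is 83.3% called, against 42.9% of all genes. Egr3 rose by 1.78, Fosb by 0.98 and Egr2 by 0.78. Socs3, Klf6 and Zfp36 fell by 1.11, 0.63 and 0.66, while Btg2 did not pass. The mean log2 CPM of the 18 early genes was 8.93 to 9.21 in Control and 9.21 to 9.37 in the knockout. Of 18 cytosolic heat shock genes 3 rose (16.7%: Hspb1 by 0.87, Hsph1 by 0.61, Hspd1 by 0.25). In the same list 2 fell (11.1%: Bag3 by 0.90, Dnajb1 by 0.24) and Hsp90ab1 did not pass. Hspb1 and Hspd1 share 50.1% and 42.1% of their 50-base stretches with other genes. Hspd1 lost the call without Control 1, 3, 4 or 5 or knockout 1, 2 or 4 (edgeR, adjusted p = 0.0556 to 0.0868), and Dnajb1 without Control 2 or knockout 2 or 5 (edgeR, adjusted p = 0.0508 to 0.0694). The part of dissociation in the differences of the 37 genes was not tested.

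**Figure D5:**
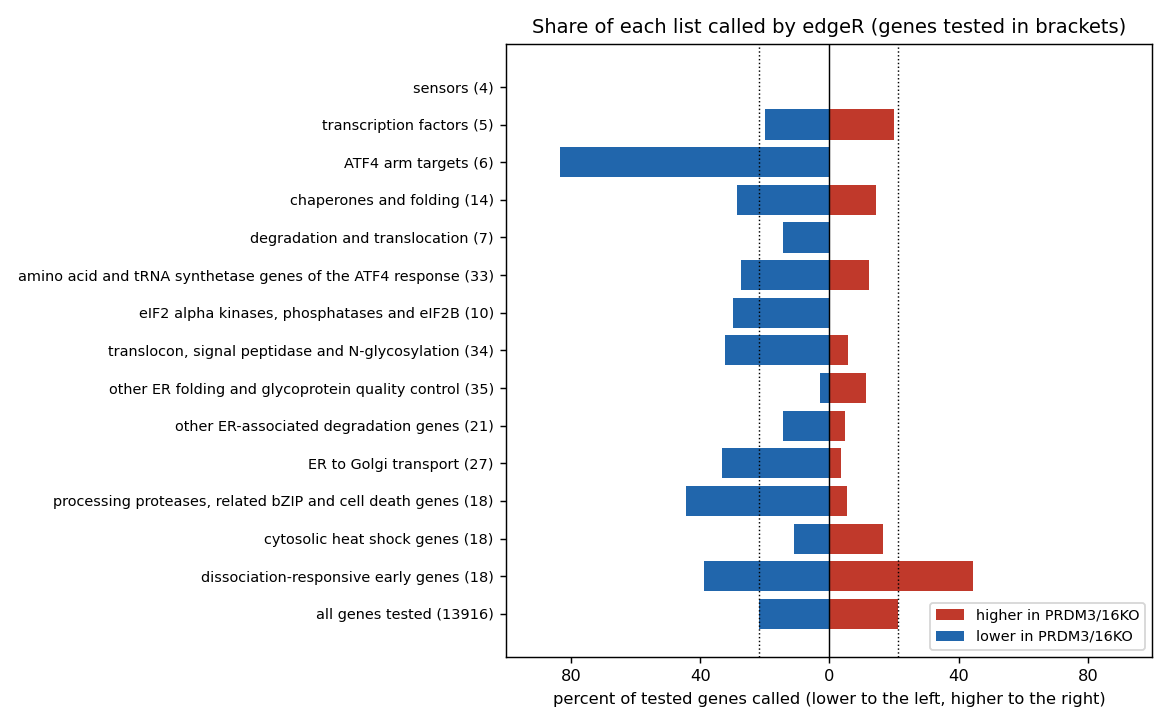
Percent of the tested genes of each list called higher (right) or lower (left) by edgeR in PRDM3/16KO, with the number tested in brackets and dotted lines at the shares over all genes (21.1% and 21.8%). The ATF4 arm targets reach 83.3% lower, and the sensors and further folding genes hold the smallest lower shares.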

How the data were processed

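The authors deposited raw counts per gene for 6 Control and 5 PRDM3/16KO libraries; per the submitters' processing notes, HTSeq 2.0, Bowtie2 2.4.2, Trim Galore 0.4.2, DESeq2 and other tools were used, with build mm10, and no roles are stated. For annotation, strand setting and multi-mapped reads, nothing is given in the sources used here. Spreadsheet dates replaced 27 symbols and 2 symbols were duplicated; these rows are not named.

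The deposited counts were filtered with filterByExpr, scaled by TMM and tested with edgeR 4.0.16 (R 4.3.3; robust quasi-likelihood F-test, two-sided) on the whole table, 13916 genes, with Benjamini-Hochberg adjustment and a threshold of 0.05. CPM uses the TMM-scaled sizes; the standard error is the coefficient over the square root of F. Intervals on summed counts cover counting error only. Gene positions and exon lengths came from GENCODE M21 (GRCm38) and promoters from RefSeq. Shared sequence was measured over 50-base stretches of transcripts. The steps were tested on simulated data.

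The 37 genes and the other lists were chosen with earlier results of these data known. All 37 are described; from each other list up to 3 called genes per direction by p are named, with the most abundant that did not pass. Planned protein stretches were not printed. Alternatives were DESeq2 size factors, library size only, no filter, 1 CPM or more in 5 libraries, limma-voom (limma 3.58.1), DESeq2 1.42.0, the replicate number as a block, a mesenchymal or Y-linked covariate, a threshold of 0.01, Control libraries 5 and 6 left out, and each library left out; low and high Y-linked libraries alone, divided at a mean of 3 log2 CPM, were added after seeing the data.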

Additional observations from a re-analysis of the deposited data

Results flagged for a closer look

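In 1 of 74 groups of values looked at (37 genes in Control and in the knockout), a library lay far from the others of its group: Herpud1 in knockout library 1, at 246 CPM, where the nearest of the other 4 was at 232 CPM and the gap was 0.873 of the group's range. With 74 groups looked at, a wide gap can arise by chance, and how often was not tested. The knockout range of Herpud1 was narrow, 230 to 246 CPM, and the gene passed without that library.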

How the results depend on the processing

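Trib3, Sesn2, Ppp1r15a, Ddit4 and Dnajb9 kept their direction and call under all 24 alternatives. The 9 other called members lost the call under at least 1 but kept their direction. Of the 22 that had not passed, 12 did so under at least 1, none with the opposite sign to the main fit. Signs did change without a call, as for Xbp1 (log2 fold change -0.12 to 0.20) and Chac1 (-0.38 to 0.37). The 3 members higher became 10 with library size only, 6 with no filter on low counts (1 of them Ern2, untested before), 1 with the Y-linked covariate, 1 at a threshold of 0.01 and 0 among high Y-linked libraries alone, and ran from 1 to 4 with each library left out. The 11 lower became 6 with the mesenchymal covariate, 7 at 0.01 and 5 among high Y-linked libraries, and ran from 8 to 12. The 13 further pathway genes higher became 30 with library size only, 7 with the mesenchymal covariate, 7 at 0.01, 8 among low and 1 among high Y-linked libraries, and ran from 10 to 16. The 44 lower became 20, 19, 24, 18 and 9 in the same order, and ran from 33 to 56. Subsets with fewer libraries test with less information, and the lone high Y-linked knockout library is assumed to vary like the others. The cause of the other shifts was not tested.

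Replicate numbers did not pair the libraries: deviations of same-numbered libraries correlated at -0.067, 0.098, -0.051, 0.0045 and 0.25, and 1 of 5 knockout libraries matched its own number best. With the number as a replicate block 2 members were higher and 11 lower (Ddit3 lost its call, 0.21; edgeR, adjusted p = 0.0632; Pdia4 lost it too, -0.14, adjusted p = 0.0990; Dnajb11 passed as lower, -0.21, adjusted p = 0.0361), and 14 and 53 of the further genes. Ern2, too low for the test reported, was tested and higher in the 5 alternatives whose filter kept it. Except with no filter, Ern2 was kept through its high knockout libraries, so those fits give its rise no independent support. Of 44 named genes outside the 37 that were called, 16 kept the call under every alternative and 0 reversed. At these depths genes of few counts, such as Ern2, Derl3 and Sec61b, are resolved least.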
